A study of Mus musculus with 2 samples.

Results

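Antisense RNAs are long noncoding transcripts that are read from the strand opposite another gene. To find which of them left small RNA reads in primary murine ear fibroblasts (PMFs), the antisense class of the Ensembl noncoding RNA table was taken. A transcript was kept when the larger of its 2 read counts was 10 or more. Members of the small nucleolar RNA (snoRNA) host group (Gas5 and symbols starting with Snhg) and the Dlk1-Dio3 region of chromosome 12 were left out. This gave 90 transcripts of 89 genes, out of 329 antisense RNA rows and 1596 rows in the whole table. The reads of both libraries chose the members, so all values below are descriptions.

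The study asked which small RNAs respond to AF357425, a C/D box snoRNA of the Dlk1-Dio3 locus. AF25-high cells had received 3GA-AF25, a 3rd generation antisense oligonucleotide that raises AF357425, at 200 nM. In AF25-low cells it was lowered by 500 nM of the gapmer GM-AF25. All were primary ear cells of C57BL/6 mice (C57BL/6-J in the methods) that were about 3 weeks old, and had been held for 48 h in 10 μM KN-93, a CaMK-II inhibitor that arrests the cycle in G1, before the 24 h transfection. Each condition had 1 library and no library of a control oligonucleotide was analysed here, so the chemistry of the oligonucleotide, its dose, the culture and the level of AF357425 cannot be told apart. AF357425 had no row among those analysed here, so its level was not checked.

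Background for reading the values: many antisense RNAs start close to the promoter of the gene they face and are kept in the nucleus. Some act on that gene in cis, as Kcnq1ot1 does at its imprinted domain, and others are host transcripts of microRNAs or snoRNAs. Small RNA sequencing does not measure the full transcripts. It counts short pieces that match them, which may be processed small RNAs or breakdown products.

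The libraries held 28856715 reads (AF25-high) and 29103700 reads (AF25-low), of which 375931 and 533803 fell in the Ensembl table. Levels are given as reads per 1000000 of the library (RPM). A ratio is RPM in AF25-high over RPM in AF25-low, with an exact Clopper-Pearson 95% interval for the counts. Reads after PCR are not independent molecules, so these intervals cover counting error only, and no test between the conditions was possible. The cells carried the microRNA loci of mesenchymal cells (10 of 16 listed had reads, 15480 in AF25-high against 29798 in AF25-low). Of 7 epithelial loci, 1 had reads (6 against 0), and none of the listed loci of blood cells, endothelium, striated muscle or neurons had any. The part of this difference in the results below was not tested. The paper reports that most reads of both libraries mapped to microRNAs, and only a small part of the reads fell in this table. A locus without reads here therefore does not show that a cell type was absent.

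The first set of sequences shows the small RNAs that lie whole within exons of the antisense RNAs, on the same strand. There were 8 such genes in 7 members, and none had a row of its own in the table. Since the table held few of the microRNA reads of the libraries, a missing row does not show that a microRNA was unread. Dnm3os holds Mir199a-2 (chr1:162217814-162217923) and Mir214 (chr1:162223368-162223477), a microRNA pair of mesenchymal cells. The mature arms, from RefSeq on GRCm38.p6 and all on the plus strand, each match Dnm3os exactly. Capitals mark the seed, bases 2 to 8, and the 4 seeds all differ.
miR-199a-5p: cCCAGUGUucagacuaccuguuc
miR-199a-3p: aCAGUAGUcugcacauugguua
miR-214-5p: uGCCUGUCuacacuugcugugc
miR-214-3p: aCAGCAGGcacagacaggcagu

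Rab26os holds Snord60 (chr17:24528476-24528553, plus strand), a C/D box snoRNA. Capitals mark its C box and D box, the motifs that its protein partners bind.
Snord60: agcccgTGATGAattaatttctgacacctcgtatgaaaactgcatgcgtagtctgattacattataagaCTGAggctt

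2900060B14Rik holds Gm22710 (chr1:118459141-118459265, minus strand), a predicted small nuclear RNA (snRNA) that starts at base 3 of the transcript and is shown whole, without capitals.
Gm22710: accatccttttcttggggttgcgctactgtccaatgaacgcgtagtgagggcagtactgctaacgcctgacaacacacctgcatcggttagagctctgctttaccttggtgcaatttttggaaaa

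Gm15987 holds Mir7649 (chr6:128974840-128974895, minus strand). Capitals again mark the seeds of the RefSeq mature arms.
miR-7649-5p: uGACAGCAgugcuguagacaug
miR-7649-3p: uCUCUCCAgcacugcuuguuucu

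Further hosts were B930036N10Rik, Gm20632 with the annotated microRNA gene Gm47311 and Gm6277 with Mir1901. D030055H07Rik has Mir135a-1 in an intron.

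**Figure D1:**
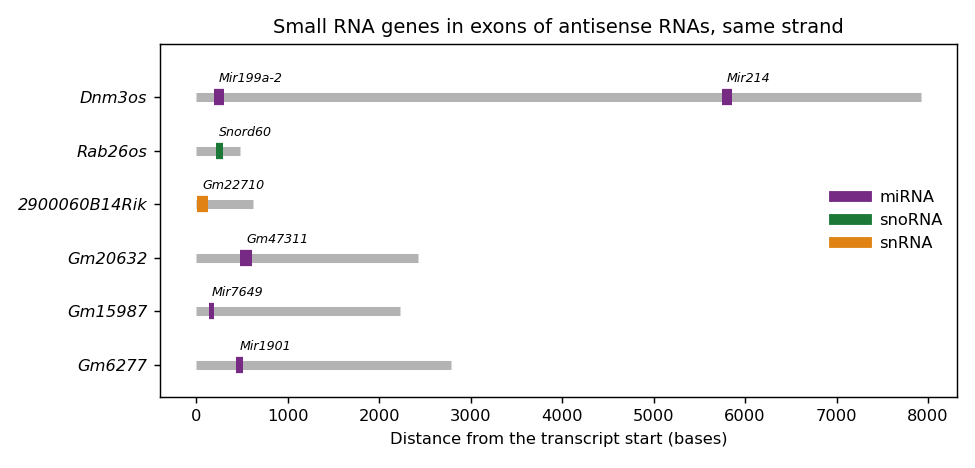
Positions of same-strand small RNA genes (coloured by type) in the exons of 6 antisense RNAs (grey bars), in bases from the transcript start. Dnm3os, 7926 bases long, carries Mir199a-2 near its start and Mir214 from base 5746, and Gm22710 begins at base 3 of 2900060B14Rik.

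The second sequence is exon 2 of Gm15564 (chr16:35981725-35981795, minus strand), shown because this abundant transcript is short and shares this exon with transcripts of other genes. All 71 bases lay in 20-base words that also occur in Lars2 or AA474408 transcripts. Capitals mark the 51 bases shared with Lars2, which encodes mitochondrial leucyl-tRNA synthetase.
Gm15564 exon 2: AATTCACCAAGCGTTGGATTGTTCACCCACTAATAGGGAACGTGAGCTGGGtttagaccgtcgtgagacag

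Summed over the 90 members, antisense RNAs had 9166 reads in AF25-high and 6496 reads in AF25-low, or 318 and 223 RPM. The ratio was 1.42 (95% interval, 1.38 to 1.47). In the same libraries, all 700 features of the table that met the same minimum summed to a ratio of 0.707 (0.704 to 0.710), and 174 lincRNAs chosen by the same rule to 0.825 (0.814 to 0.836). RPM are shares of a library. Whether a smaller share of cells with these RNAs or less of them per cell lay behind a lower RPM cannot be told apart in bulk RNA. The members held 2.44% of the AF25-high reads of the table and 1.22% of the AF25-low reads.

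How far the sum was above 1 depended on the most abundant transcripts. Gm30489 alone had 2748 more reads in AF25-high than in AF25-low, whereas the whole group had 2670 more. Without it, the members had 5639 reads in AF25-high and 5717 reads in AF25-low, a ratio of 0.995 (0.959 to 1.03). Without Dnm3os and Gm15564 as well, they had 2622 reads in AF25-high and 1737 reads in AF25-low, a ratio of 1.52 (1.43 to 1.62). Gm30489 made up 38.5% of the group in AF25-high, against 12.0% in AF25-low. Dnm3os and Gm15564 went the other way, with 18.2% against 34.0% for Dnm3os and 14.7% against 27.3% for Gm15564. The 10 most abundant members together took 86.4% of the AF25-high reads and 82.7% of the AF25-low reads.

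**Figure D2:**
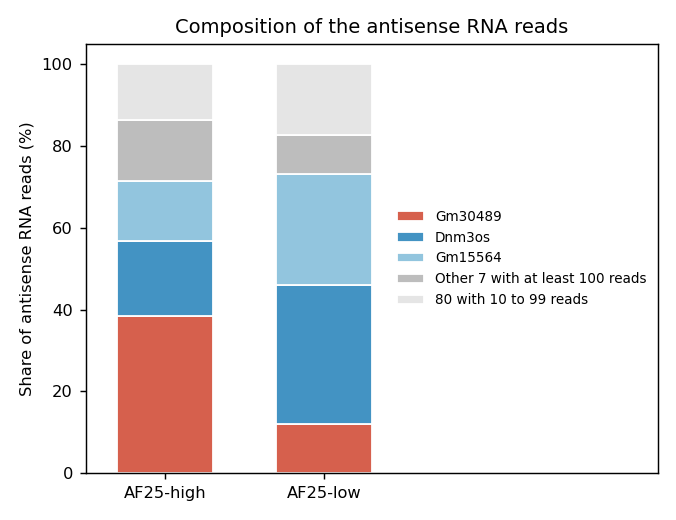
Share of the summed antisense RNA reads (%) in AF25-high (left, 9166 reads) and AF25-low (right, 6496 reads), by transcript. Gm30489 fills 38.5% of the AF25-high bar and 12.0% of the AF25-low bar, and Dnm3os and Gm15564 fill more of the AF25-low bar.

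Gm30489 was the most abundant member. This predicted transcript of 4 exons and 1746 bases (chr13:36963239-36973329, plus strand) lies opposite F13a1, which encodes the A chain of coagulation factor XIII, and its exons overlap F13a1 exons. It had 3527 reads in AF25-high and 779 reads in AF25-low, or 122 and 26.8 RPM. The ratio was 4.57 (4.22 to 4.94). Per kilobase of transcript its level was 70.0 RPM in AF25-high, against 15.3 RPM in AF25-low. Of its bases, 2.00% lay in 20-base words found in transcripts of 6 other genes. Which part of Gm30489 the reads match is not given.

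Dnm3os (chr1:162217623-162225548, plus strand) is a single exon of 7926 bases in an intron of Dnm3, which encodes dynamin 3, a GTPase of membrane fission. In mice it is the precursor of miR-199a and miR-214. It had 1669 reads in AF25-high and 2206 reads in AF25-low, or 57.8 and 75.8 RPM, a ratio of 0.763 (0.716 to 0.814). Per kilobase this was 7.30 RPM in AF25-high, against 9.56 RPM in AF25-low, well under Gm30489 in AF25-high. Mir199b, which makes the same family of microRNAs from another host gene, had 7 reads in AF25-high and 11 reads in AF25-low. These counts do not measure the mature microRNAs, most of whose reads lay outside the table. Which part of Dnm3os its own reads match is not given either.

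Gm15564 (chr16:35966753-35983230, minus strand) has 4 exons and 402 bases, and faces introns of Parp9, an ADP-ribosyltransferase family gene, and Kpna1, which encodes an importin alpha. It had 1348 reads in AF25-high and 1774 reads in AF25-low, or 46.7 and 61.0 RPM. The ratio, 0.766 (0.713 to 0.823), was close to that of Dnm3os. Because the transcript is short, its level per kilobase was 116 RPM in AF25-high, against 152 RPM in AF25-low, the highest of the members with at least 100 reads. Which part of it the reads match is not given by the table, and the shared exon shown above makes the assignment of its reads uncertain. Whether this exon also matches ribosomal RNA was not tested.

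The next 2 by abundance were both higher in AF25-high. A730035I17Rik (chr5:98183121-98185984, minus strand) overlaps exons of Prdm8, which encodes a PR domain protein of the histone methyltransferase family. It had 491 reads in AF25-high and 73 reads in AF25-low, a ratio of 6.78 (5.30 to 8.80). The transcript contains an unbroken CA repeat of 50 bases from base 978. Of its bases, 6.09% lay in 20-base words found in transcripts of other genes, 2119 genes in all. Which part of it the reads match is not given, so their assignment to this transcript is uncertain. Gm42493 (chr9:109448645-109460105, plus strand) lies opposite the F-box gene Fbxw16. It had 196 reads in AF25-high and 57 reads in AF25-low, a ratio of 3.47 (2.57 to 4.74).

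Gm44026 had the highest ratio among members with reads in both libraries. It is a transcript of 2088 bases (chr6:54463685-54473170, minus strand) opposite introns of Wipf3, which encodes a partner of WASP family actin regulators. It had 135 reads in AF25-high and 4 reads in AF25-low, a ratio of 34.0 (13.0 to 127). The low count in AF25-low leaves the size of this ratio imprecise, but the whole interval lies above those of Gm30489 and A730035I17Rik. Gm14236 (chr2:168010529-168011506, plus strand), which overlaps exons of Ripor3, differed less. It had 115 reads in AF25-high and 74 reads in AF25-low, a ratio of 1.57 (1.16 to 2.13).

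**Figure D3:**
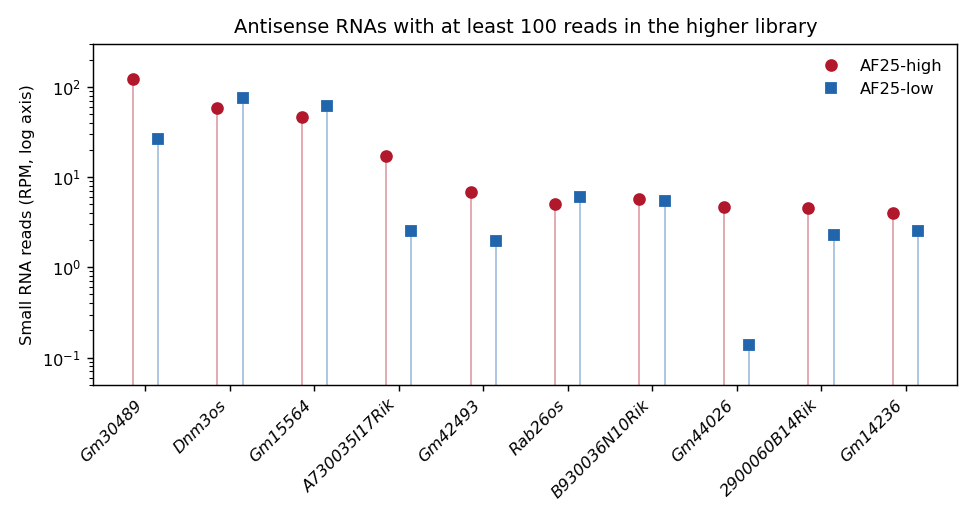
RPM (log axis) of the 10 antisense RNAs that reached 100 reads in either library, with AF25-high (circles) left of AF25-low (squares), 1 library each. Gm30489 and Gm44026 are far apart between the libraries, while Rab26os and B930036N10Rik nearly coincide.

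On the library totals, the only scale used for the sums here, small RNA hosts had a sum below 1. Summed over the 7 hosts, there were 2156 reads in AF25-high and 2652 reads in AF25-low, a ratio of 0.820 (0.774 to 0.868). Dnm3os supplied most of these reads, and its own ratio was 1.07 when scaled to the total of the table. Without Dnm3os the other hosts had 487 reads in AF25-high and 446 reads in AF25-low, with a ratio of 1.10 and an interval (0.967 to 1.26) that included 1. The 83 members without an exonic small RNA gene summed to 7010 reads in AF25-high, against 3844 in AF25-low, a ratio of 1.84 (1.77 to 1.91), and without Gm30489 the ratio was 1.15 (1.09 to 1.20). Rab26os (chr17:24528267-24528743), which carries Snord60 and faces Rab26, a GTPase gene of vesicle traffic, had 147 reads in AF25-high and 176 reads in AF25-low. Its ratio was 0.842, with an interval (0.672 to 1.05) that included 1, though not under the median of ratios (0.583 to 0.915) or TMM (0.595 to 0.934). B930036N10Rik (chr1:171500568-171504111), another host, which faces the mRNA export factor gene Alyref2, had 165 reads in AF25-high and 159 reads in AF25-low. Its ratio was 1.05 (0.837 to 1.31), and 1.47 (1.18 to 1.84) when scaled to the total of the table.

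2900060B14Rik was the exception among the abundant hosts. It is a single exon of 616 bases (chr1:118458652-118459267, minus strand) in an intron of Clasp1, which encodes a microtubule plus-end protein. It had 131 reads in AF25-high and 67 reads in AF25-low, a ratio of 1.97 (1.46 to 2.69). For this and the other hosts, whether the reads match the small RNA gene or the rest of the transcript is not given. The remaining hosts were sparse. Gm20632, opposite the histone gene Hist2h2aa2, had 22 reads in AF25-high and 34 reads in AF25-low. Gm15987 had 12 reads in AF25-high and 4 reads in AF25-low, and Gm6277 had 10 reads against 6. All of their intervals included 1.

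Across the members, 31 were at least 2-fold higher in AF25-high and 15 were at least 2-fold lower, where a library at 0 was set to the floor of 3 reads. These are 34.4% and 16.7% of the members. Over all 700 features of the table, 23.3% were at least 2-fold higher and 14.3% at least 2-fold lower. Among the lincRNAs the shares were 39.1% and 10.9%. With the table's own totals as the scale, the members split into 45 higher and 11 lower (50% and 12.2%), against 36.1% and 7.29% of all features on that scale. Under either the median of ratios or TMM, 24 members were at least 2-fold higher and 16 at least 2-fold lower (26.7% and 17.8%). All features then had 17.4% and 18.4% under the median of ratios, and 18.1% and 18.0% under TMM. On the library totals, the share of members at least 2-fold higher was above that of the table and below that of the lincRNAs. These differences were not tested.

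Counting error alone covered most of the members. The interval lay above 1 for 23 members (25.6%), below 1 for 14 (15.6%) and included 1 for 53. Over all features the shares were 25.6% above 1 and 19.9% below 1, and over the lincRNAs 31.6% and 11.5%, so the share of members with an interval above 1 was that of the table. The median log2 ratio of the members was 0.47 with 0.5 reads added to each count. It was 0.50 for the lincRNAs and 0.14 for all features. In sign, 54 members were higher in AF25-high and 36 were lower, or 60.0% higher, against 56.4% over all features and 64.9% over the lincRNAs.

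**Figure D4:**
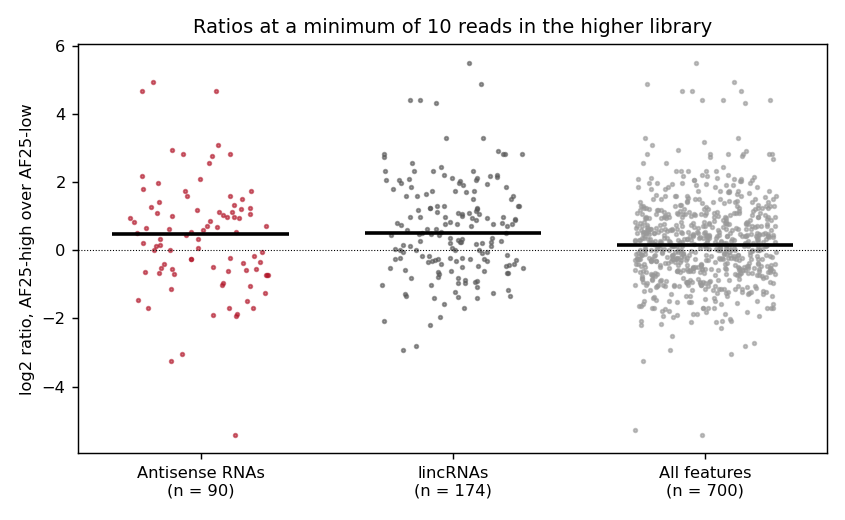
log2 ratio of AF25-high over AF25-low for 90 antisense RNAs, 174 lincRNAs and all 700 features at the minimum of 10 reads, 1 point each. Black lines are the medians, 0.47, 0.50 and 0.14. Gm17344, with 0 reads in AF25-high, is the lowest antisense RNA at -5.41.

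Of the 39 members that reached 20 reads in either library, 14 had an interval above 1 and 7 had one below 1 (35.9% and 17.9%). Over all 436 features at that minimum the shares were 29.1% and 26.6%. Besides those already described, 4 stood among the 8 highest ratios. Gm43653 lies opposite Ap1ar, a gene of an adaptor complex regulator, and had 24 reads in AF25-high and 3 reads in AF25-low. Its ratio was 8.07, with a broad interval of 2.45 to 41.9. Gm17039 faces a zinc finger gene, Zfp456, and had 58 reads in AF25-high and 17 reads in AF25-low, a ratio of 3.44 (1.98 to 6.30). Like A730035I17Rik, it contains an unbroken CA repeat of 50 bases, and it shares 20-base words with 2240 other genes. The assignment of its reads is therefore also uncertain. Gm30489, Gm42493, Gm44026 and Gm14236, which were also searched, had CA or GT runs of 6 bases or fewer. How often such a repeat occurs in the remaining members was not examined.

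1600020E01Rik starts 50 bases from the start of Pcbp1, the gene of a poly(C)-binding protein. It had 22 reads in AF25-high and 8 reads in AF25-low, a ratio of 2.77 (1.19 to 7.20). Ccdc142os starts 14 bases from Mrpl53, which encodes a mitochondrial ribosomal protein, and had 38 reads in AF25-high and 15 reads in AF25-low. Its ratio was 2.56 (1.37 to 5.0). Both intervals lay above 1, but these members were picked for their high ratios, so the intervals do not test a difference.

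At the other end, Gm17344 had 0 reads in AF25-high and 21 reads in AF25-low. It overlaps exons of Ap1g1, the gene of a clathrin adaptor subunit. With the floor of 3 reads in AF25-high, it was at least 6.94-fold lower, and the counting interval of the ratio reached up to 0.194. Gm20635 faces Grid2ip, a gene of a glutamate receptor partner, and had 10 reads in AF25-high and 39 reads in AF25-low, a ratio of 0.259 (0.115 to 0.528).

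Cdrt4os1 had 15 reads in AF25-high and 37 reads in AF25-low, a ratio of 0.409 (0.208 to 0.763). Gm7628 faces the semaphorin receptor gene Plxnb1 and had 15 reads in AF25-high and 34 reads in AF25-low, a ratio of 0.445 (0.225 to 0.839). Gm4673 faces Lsr, a lipoprotein receptor gene, and had 17 reads in AF25-high and 35 reads in AF25-low, a ratio of 0.490 (0.257 to 0.898). These 3 intervals lay below 1, but included 1 when scaled to the total of the table. A second Gm4673 transcript, outside the group, had 6 reads in AF25-high and 9 reads in AF25-low. These are too few to show a difference, and rows of the same gene are not separate observations.

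For the last 3 of the 8 lowest ratios the interval included 1, but lay below it under the median of ratios and, except for Gm20632, under TMM. Gm13054, opposite the atrial natriuretic peptide gene Nppa, had 19 reads in AF25-high and 32 reads in AF25-low (0.321 to 1.09). 4930537H20Rik, opposite the chromatin remodelling gene Gatad2b, had 18 reads in AF25-high and 30 reads in AF25-low (0.318 to 1.12). Gm20632, the host given above, completed the set.

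**Figure D5:**
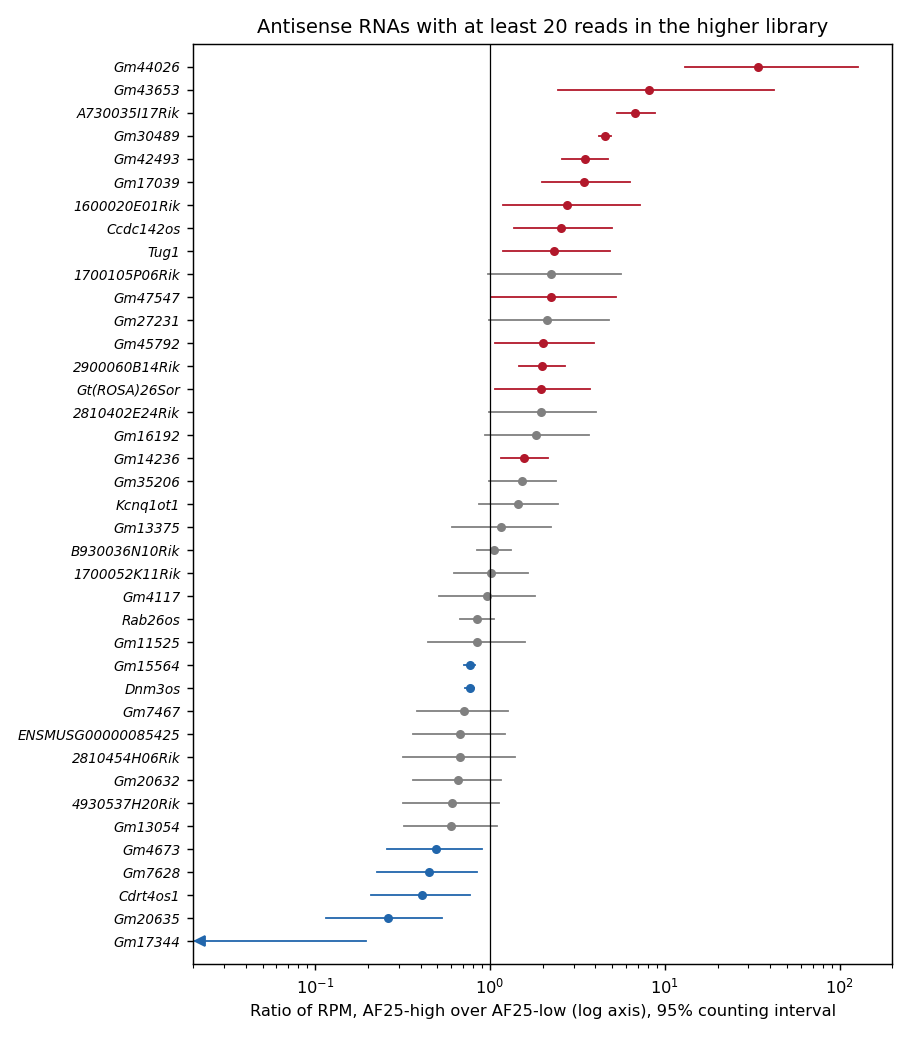
Ratio of RPM in AF25-high over AF25-low (log axis) with 95% counting intervals for the 39 antisense RNAs that reached 20 reads in either library. Intervals above 1 are red (14), below 1 blue (7) and others grey, and the triangle marks Gm17344, with 0 reads in AF25-high.

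Among antisense RNAs with known roles, few were measurable. Of the imprinted antisense RNAs listed, 2 had rows. Kcnq1ot1 (chr7:143203458-143296549, minus strand), which silences neighbouring genes on the paternal chromosome, had 40 reads in AF25-high and 28 reads in AF25-low. Its ratio of 1.44 (0.867 to 2.43) did not differ from 1 beyond counting error, though scaled to the total of the table it was 2.03 (1.22 to 3.41). Its 93092 bases make it the longest member. Nespas, at the Gnas domain, had 6 reads in AF25-high and 5 reads in AF25-low and was not a member.

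No antisense RNA of the Hox clusters or of the listed transcription factor genes was a member. The Hox clusters had 3 rows with 10 reads in AF25-high and 13 reads in AF25-low in all, from Hoxb3os and 2 transcripts of Hotairm1. Of the transcription factor list, Emx2os had 7 reads in AF25-high and 4 reads in AF25-low. At this depth no difference was detectable for any of them.

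The 10 members named after an opposite or neighbouring gene held 1957 reads in AF25-high and 2502 reads in AF25-low, a ratio of 0.789 (0.743 to 0.837) that again came mainly from Dnm3os. Of these, 4 were at least 2-fold higher in AF25-high and 2 at least 2-fold lower (40% and 20%, against 23.3% and 14.3% of all features). The 31 Rik clones summed to a ratio of 1.83 (1.66 to 2.02), with 11 at least 2-fold higher and 5 at least 2-fold lower (35.5% and 16.1%), and A730035I17Rik gave 491 of their 1134 reads in AF25-high. The 45 predicted Gm transcripts also summed to 1.83 (1.75 to 1.91), with 15 and 8 (33.3% and 17.8%), and Gm30489 gave 3527 of their 5982 reads in AF25-high. Without a function known for most of them, these names describe only how the loci were found.

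1700052K11Rik, opposite exons of the kinase gene Tlk2, had 36 reads in each library. Gt(ROSA)26Sor, the ubiquitously active locus used for transgenes, had 33 reads in AF25-high and 17 reads in AF25-low, a ratio of 1.96 (1.06 to 3.75), with an interval that included 1 under the median of ratios and TMM. Tug1, a long noncoding RNA whose start lies near Morc2a, entered with 2 transcripts. These had 30 and 10 reads in AF25-high, against 13 and 7 reads in AF25-low. Summed over its 4 rows, Tug1 had 42 reads in AF25-high and 22 reads in AF25-low, a ratio of 1.93 (1.12 to 3.39). The rows of 1 gene share sequence, so they are not separate observations. One identifier, ENSMUSG00000085425, with 20 reads in AF25-high and 30 reads in AF25-low, was not matched to the annotation used here.

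Most of the members, 51 of 90, did not reach 20 reads in either library. Several of these were nearly empty on one side, and the following were chosen after their values were seen. Gm44089 and 4933429H19Rik each had 12 reads in AF25-high and 0 reads in AF25-low, at least 4.03-fold higher at the floor, with a lower interval bound of 2.80. 4732463B04Rik had 12 reads in AF25-high against 1 in AF25-low, and Map2k3os, which starts near the stress kinase gene Map2k3, had 11 against 1. In the other direction, D030055H07Rik had 1 read in AF25-high and 14 reads in AF25-low, and Gm26770 had 1 read against 12. Atcayos had 4 reads in AF25-high and 16 reads in AF25-low.

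The threshold of 10 reads divided similar rows. Just inside it, 4930417O13Rik had 10 reads in AF25-high against 2 in AF25-low, A930024E05Rik 10 and 4, Gm10516 10 and 6, Gm26648 10 and 3, and Gm45470 10 and 8. Just outside it, 0610038B21Rik had 8 reads in AF25-high against 9 in AF25-low, 9330159M07Rik 9 and 5, 9930004E17Rik 9 and 2, D130020L05Rik 8 and 9, and Gm10248 9 and 1. The 237 antisense rows with fewer than 10 reads summed to 1044 reads in AF25-high and 812 reads in AF25-low, a ratio of 1.30 (1.18 to 1.42). The rule also left out Snhg9 (41 reads in AF25-high, 27 in AF25-low) and Snhg7os (12 and 2).

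In structure, the members were longer and more often of a single exon than annotated antisense transcripts at large. The members were chosen by total reads, whereas the annotation counts every transcript of each gene. The 2 sets were thus not drawn alike, which also limits the comparison of start positions below. Coordinates were available for 89 of them in GENCODE M21 on GRCm38. Their median length was 2090 bases (360 to 93092), against 763 bases for the 4511 antisense transcripts of the annotation. A single exon was annotated for 31 of them (34.8%), against 7.14% of the annotation. Exons of 60 members overlapped exons of a protein-coding gene on the other strand, 17 met introns only, and 12 had no protein-coding gene opposite them. Across the members, the log2 ratio and transcript length had a Spearman correlation of -0.05 (n = 89 transcripts in the same 2 libraries).

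The start of 46 members (51.7%) lay within 1000 bases of the start of a protein-coding gene on the other strand, as did that of 25.0% of annotated antisense transcripts. These 46 had a median log2 ratio of 0.66, and 19 were at least 2-fold higher in AF25-high and 9 at least 2-fold lower (41.3% and 19.6%). The 43 that started further away had a median of 0.14, with 12 and 6 (27.9% and 14%). Over all features the shares were 23.3% and 14.3%. The most abundant transcripts, Gm30489, Dnm3os and Gm15564, were all in the second set. Whether the 2 sets differ was not tested.

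Shared sequence limits how surely some reads belong to a member. The median member had 7.62% of its bases in 20-base words found in transcripts of other genes, and 3 had 50% or more of them there. These were Gm47547 (98.3%), Gm20632 (53.5%) and Gm45792 (52.1%), named for these values. Each read was assigned to 1 locus, the most expressed of those it matched, so the counts of such members depend on the counts of their relatives. The same can hold for members with a lower share, since the part that the reads match is not given.

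Since AF357425 is expected to pair with its targets through the bases before its D′ box, the complement of bases 21 to 27 (TGGGGTT) was searched on the sense strand of each member. The motif AACCCCA occurred 32 times in 16 of 89 members (18.0%), against 10.5% of annotated antisense transcripts. Per kilobase it occurred 0.0911 times in the members and 0.101 times in the annotation. The 16 members with the motif had a median log2 ratio of 0.28 and the 73 without it 0.52. With the motif, 4 were at least 2-fold higher in AF25-high and 4 at least 2-fold lower (25.0% each). Without it, the counts were 27 and 11 (37.0% and 15.1%), against 23.3% and 14.3% of all features. Whether the sets differ was not tested. None of the 10 most abundant members held the motif. A match of these letters is not evidence of a site, and the table does not measure methylation.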

How the data were processed

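Small RNA of 2 libraries was sequenced by the authors, who ran sRNAbench with Bowtie on GRCm38 and small RNA databases, counted reads on the sense strand and assigned each read to 1 locus. Versions were not given in the sources at hand. The deposited signal values (Ensembl noncoding RNAs and tRNAs) are counts that the authors divided by a size factor per library. The RNAcentral table was not used. The deposited tables also hold the fold changes and p-values of the authors' own comparison, which were not used.

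Each value over the lowest nonzero value of its column gave whole reads (100% of values whole within 1e-06). RPM were computed from totals of 28856715 reads for AF25-high and 29103700 reads for AF25-low, each a median of tRNA reads over the study's RPM for 38 anticodons with at least 100 RPM. Ratios have exact Clopper-Pearson 95% intervals. Names and coordinates came from GENCODE M21, which matched 1571 of 1596 rows, and microRNA sequences from RefSeq (GRCm38.p6).

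The members and lists were chosen with earlier results of these data known. Named members are those with at least 100 reads, the 8 highest and 8 lowest ratios at 20 reads or more, up to 5 rows on each side of the minimum and up to 4 per list. Exceptions are stated. Alternatives were 4 scalings (median of ratios, table total, TMM from edgeR 4.0.16 in R 4.3.3, microRNA reads), minimums of 5 and 20 reads, other additions to the counts, leaving out the 3 most abundant members or the hosts, and summing transcripts. Leaving out Gm30489 was added after seeing the data. The steps ran in Python 3.11.15 (scipy 1.17.1, pandas 2.3.3, numpy 2.4.6, matplotlib 3.10.9) and were tested on simulated data with Poisson counting error. The small RNA gene inside B930036N10Rik is not reported here.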

Additional observations from a re-analysis of the deposited data

How the results depend on the processing

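No paired analysis was possible because each condition had 1 library, and no replicate could be left out. The other scalings moved every log2 ratio by -0.20 (median of ratios), 0.49 (total of the table), -0.18 (TMM) and 0.01 (microRNA reads). The summed ratio was 1.23, 2.00 and 1.26 under the first 3 of these, 1.52 without the 3 most abundant members and 1.84 without the hosts of small RNAs. It was 0.995 (0.959 to 1.03) without Gm30489, so the sum then did not differ from 1 beyond counting error. The median log2 ratio was 0.96 when scaled to the total of the table, where 63 members were higher in AF25-high and 27 lower. It was 0.27 under the median of ratios and 0.29 under TMM, each with 49 members higher and 41 lower. The medians of all features were then -0.06 and -0.03. Members at least 2-fold higher and lower numbered 13 and 5 at a minimum of 20 reads (39 members) and 100 and 47 at a minimum of 5 reads (275 members), since the minimum sets how many rows are counted. These are 33.3% and 12.8%, and 36.4% and 17.1%, against 16.1% and 12.2%, and 29.2% and 15.6%, of all features at the same minimums. Scaled to the total of the table, Dnm3os had a ratio of 1.07 and Gm15564 of 1.08, so their lower level in AF25-high held under the library totals, median of ratios, TMM and microRNA reads but not there. Of 33 named transcripts, the ratio stayed within its own counting interval in 30 (median of ratios), 23 (total of the table), 30 (TMM) and 33 (microRNA reads). Scaled to the total of the table, the intervals of Cdrt4os1 (0.294 to 1.07), Gm7628 (0.317 to 1.18) and Gm4673 (0.362 to 1.26) included 1. Under the median of ratios, those of Gm13054 (0.278 to 0.945), 4930537H20Rik (0.276 to 0.973) and Gm20632 (0.315 to 0.997) lay below 1. No replicate error is known, and at 10 to 19 reads counting error alone spans several fold.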
